A study of Mus musculus with 24 samples.

Results

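The response of the OT line to differentiation medium was read out in 8 of the 24 samples of the study, chosen by their sample titles: 4 samples from differentiation medium (OT-d) and 4 from proliferation medium (OT-p). OT cells are N1E-115 mouse neuroblastoma cells transfected with a chimeric construct in which the C-terminal side of transcobalamin, the blood carrier of cobalamin (vitamin B12), is joined to oleosin, a lipid body protein of plants. The OT fusion shows no measurable cobalamin binding, whereas the TO fusion, joined through the N-terminal side, binds cobalamin strongly. Differentiation medium held 2.5% fetal calf serum and 1.25% DMSO, and proliferation medium held 10% serum, so serum and DMSO differed together. Both OT groups carry the construct. Its promoter, the number of clones behind the line and the time spent in differentiation medium are not given in the sources used here. The same media were used for TO cells (TO-d, TO-p) and for untransfected cells (WT-d, WT-p), which served here to ask whether the OT response differed from theirs. Each of the 6 groups had 4 samples.

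N1E-115 cells derive from a tumour of the sympathetic lineage and keep dividing in serum-rich medium. When serum is lowered and DMSO is added, such cells are known to leave the cell cycle, to extend neurites and to become electrically excitable. Serum supplies growth factors, BMP-like ligands and lipoproteins, so its withdrawal is known to act on E2F-controlled replication genes, on Id genes, which hold back differentiation, and on the sterol pathway.

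Samples were labelled from 0.2 µg of RNA and hybridised in pairs on 12 Agilent 2-colour arrays spread over 3 slides, each sample in 1 dye. The share of spots well above background was 55.79 to 65.72% in the OT-d samples and 56.64 to 65.87% in the OT-p samples, and no spot was saturated. Levels below are normalized log2 intensities, and their precision is limited by 4 samples a group. Across genes, OT-d samples correlated with each other at 0.9935 to 0.9974 and OT-p samples at 0.9953 to 0.9982, against 0.9334 to 0.9448 between the media. In each group, 2 of the 4 samples carry the same number in the labels, 1 of them with a b, so they may share a source. The study calls the samples biological replicates, but nothing says that they came from separate cultures, and p-values then measure only the spread between these samples. All 15 markers of sympathoadrenal cells, among them Th, Dbh, Ddc, Hand2 and Chga, were above background in all 8 OT samples. In such bulk samples, fewer cells of a type and less RNA per cell cannot be told apart.

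Differentiation medium moved most of the genes measured in OT cells. The proliferation programme fell by up to 30.3-fold (Exo1) among genes above background in all 8 samples, and Id genes, nucleolar genes and folate enzymes were also mostly or strongly lower. Genes of neurosecretion, ion channels, glycolysis, lysosomes and the FOXO response were mostly higher. Of 16252 genes tested, 5920 (36.4%) were higher and 5050 (31.1%) lower in OT-d than in OT-p at an adjusted p under 0.05 (limma, Benjamini-Hochberg over all genes), and 5282 were not called. A change beyond 2-fold was called in 1534 higher and 1219 lower genes, and beyond 8-fold in 53 higher and 136 lower genes. The median log2 difference over all genes was 0.043. Counts of list members below are to be read beside these shares of 36.4% higher and 31.1% lower. Genes called "higher" or "lower" in OT-d below passed this test, and log2 differences are OT-d minus OT-p.

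**Figure D1:**
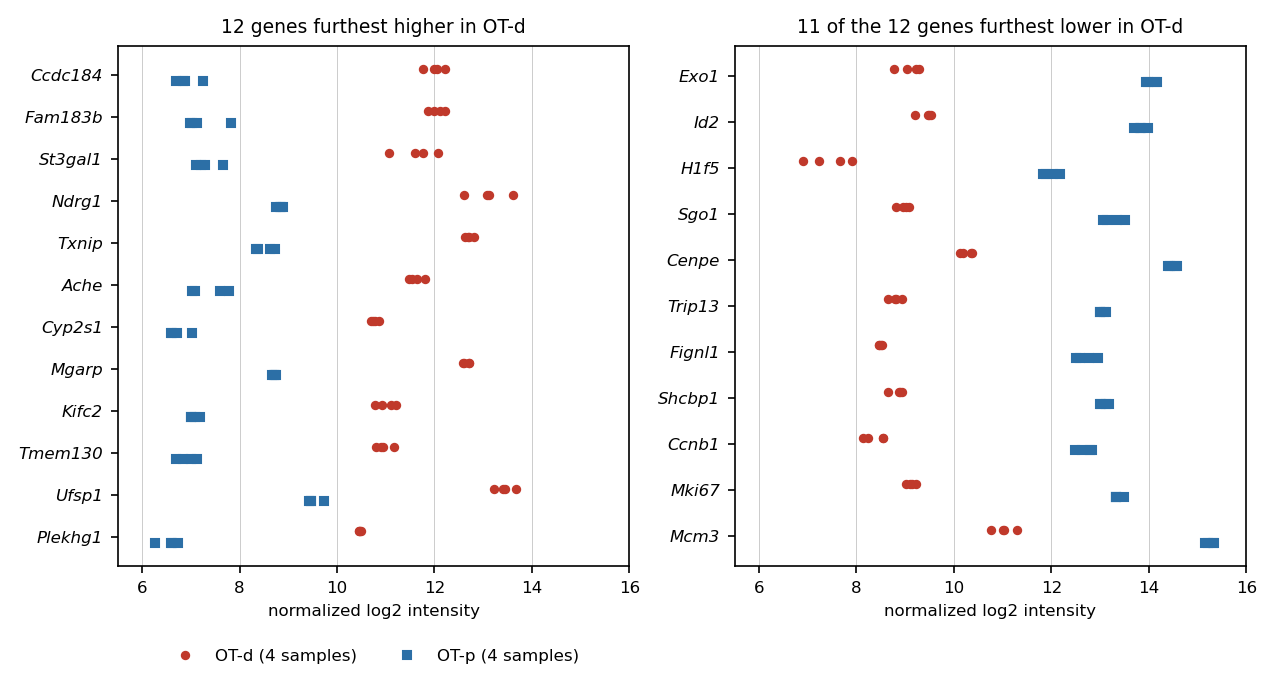
Normalized log2 intensity (horizontal axis) of the 12 genes with the largest called increase (left) and 11 of the 12 with the largest called decrease (right) among genes above background in all 8 samples; red points are the 4 OT-d samples and blue squares the 4 OT-p samples. Genes were picked on the condition that the media do not overlap, so the lack of overlap is not a result. The spread within a medium is small beside the gap between media, as for Cenpe at 10.13, 10.35, 10.36 and 10.19 in OT-d against 14.54, 14.58, 14.44 and 14.40 in OT-p.

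Genes of DNA replication and the G1/S transition were all lower. Of 59 list members tested, 0 were higher and 59 lower in OT-d, with a median log2 difference of -2.5 beside 0.043 over all genes. Exo1, the exonuclease of mismatch repair and DNA end resection, had levels of 9.03, 9.28, 8.77 and 9.23 in OT-d samples, against 14.16, 14.12, 13.94 and 13.99 in OT-p samples. Every OT-d sample lay far below every OT-p sample, and the fitted difference was -4.92 ± 0.19 (SE), a 30.3-fold decrease (adjusted p = 3.82e-16). Mcm3, a subunit of the replicative helicase, had levels of 11.00, 11.29, 10.76 and 11.02 in OT-d, against 15.33, 15.32, 15.16 and 15.22 in OT-p. It remained well above background in differentiation medium although it was 18.4-fold lower. Rrm2, the regulated subunit of ribonucleotide reductase, was 17-fold lower, the S-phase activator E2f2 15-fold and Gins1, a partner of the helicase, 14.8-fold. Fignl1, an ATPase of homologous recombination, was 19-fold lower. H1f5, a linker histone, was 19.6-fold lower, with OT-d levels of 6.89, 7.66, 7.23 and 7.91 against 12.17, 12.03, 11.89 and 11.83 in OT-p.

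Mitotic genes were lower in all but 1 case. Of 53 tested, 1 was higher and 52 were lower in OT-d, with a median log2 difference of -3.42. Ccnb1, the mitotic cyclin B1, had levels of 8.14, 8.54, 8.24 and 8.55 in OT-d, against 12.83, 12.63, 12.79 and 12.48 in OT-p, a 18.4-fold decrease (adjusted p = 4.57e-17). Mki67, which encodes the proliferation marker Ki-67, had levels of 9.01, 9.22, 9.10 and 9.14 in OT-d, against 13.32, 13.32, 13.48 and 13.32 in OT-p, 18.4-fold lower. In both genes the 4 samples of a medium sat close together and the media were far apart. Sgo1, the protector of centromeric cohesion, was 19.5-fold lower, the checkpoint ATPase Trip13 19.4-fold, Shcbp1 18.7-fold and Birc5 (survivin) 16.1-fold. Cenpe, the kinetochore kinesin, was 19.5-fold lower on the probe used, and its 3 probes ranged from -4.3 to -2.4. The exception was Racgap1, an activator of GTP hydrolysis at the division furrow, at 12.23, 11.85, 12.36 and 12.12 in OT-d against 11.44, 11.42, 11.77 and 11.38 in OT-p (log2 0.72), and its second probe gave a log2 difference near 0. E2f8, a repressor of the E2F family, and Kif15, a spindle kinesin, were above background in all 4 OT-p samples and in no OT-d sample, which bounds their decrease at at least 7.02-fold and at least 3.73-fold. Prr9 had the largest such bound, at least 11.12-fold lower.

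Promoters of these lists were searched, on both strands, in the 300-base RefSeq windows of the GRCm38.p6 build. The motifs were CCAAT, the box bound by NF-Y, TTTGAA, the core of the cell cycle homology region, and TTTGGCGC or TTTCCCGC, forms of the E2F site. Both CCAAT and TTTGAA occurred in 28 of 45 mitotic promoters (62.2%), against 791 of 10975 promoters of all tested genes (7.21%). An E2F form occurred in 15 of 47 replication promoters (31.9%) and 2 of 45 mitotic promoters (4.44%), against 3.18% of all. These are matches of letters, described without a test, and no binding was measured. The promoters of 4 mitotic genes and 1 replication gene are shown to set the CCAAT and TTTGAA boxes beside the E2F forms, with all 4 letter strings marked in each. They were picked after their values and matches were seen, and each gives the 120 bases before the RefSeq transcript start, 5′ to 3′ on the gene's strand, with the matches in capitals (ATTGG and TTCAAA are the motifs on the other strand).
Cdc20, chr4:118437344-118437463, minus strand: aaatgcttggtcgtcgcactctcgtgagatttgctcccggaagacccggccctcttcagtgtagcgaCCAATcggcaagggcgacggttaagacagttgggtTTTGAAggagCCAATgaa
Cdk1, chr10:69352913-69353032, minus strand: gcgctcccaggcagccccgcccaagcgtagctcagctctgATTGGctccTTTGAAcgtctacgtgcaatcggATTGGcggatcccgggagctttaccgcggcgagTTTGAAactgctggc
Ccnb1, chr13:100786487-100786606, minus strand: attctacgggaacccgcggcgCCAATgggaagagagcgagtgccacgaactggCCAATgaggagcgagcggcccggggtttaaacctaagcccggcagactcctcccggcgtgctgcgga
Top2a, chr11:99024190-99024309, minus strand: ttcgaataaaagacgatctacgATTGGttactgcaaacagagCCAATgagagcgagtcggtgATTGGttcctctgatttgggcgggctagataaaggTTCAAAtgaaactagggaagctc
Mcm6, chr1:128359706-128359825, minus strand: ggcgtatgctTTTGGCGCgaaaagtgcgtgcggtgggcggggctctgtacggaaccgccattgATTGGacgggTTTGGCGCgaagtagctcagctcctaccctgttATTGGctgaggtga
Cdc20, which activates the anaphase-promoting complex, has CCAAT and TTTGAA 53, 18 and 8 bases before the start. Cdk1, the mitotic kinase, and Top2a, the decatenating topoisomerase, hold both motifs, and Ccnb1 holds CCAAT but not TTTGAA within these bases. Mcm6, another helicase subunit, holds TTTGGCGC at 2 places and CCAAT, on the other strand, at 2 places, and no TTTGAA. Cdc20 had levels of 10.70, 11.13, 10.58 and 10.79 in OT-d, against 14.60, 14.60, 14.56 and 14.62 in OT-p, and Cdk1 had 10.41, 10.95, 10.35 and 11.04 against 13.74, 13.68, 13.79 and 13.67. Top2a was 14.3-fold lower and Mcm6 3.71-fold lower. CCAAT thus stood in all 5 stretches and an E2F form only in that of Mcm6. The second probe of Cdk1 gave a log2 difference of only -0.4.

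The cell cycle brakes and G1 cyclins split. Of 27 tested, 7 were higher and 12 lower in OT-d (median -0.0516). Ccng2, an unconventional cyclin of non-dividing cells, had levels of 12.27, 12.22, 11.98 and 12.04 in OT-d, against 9.60, 9.55, 9.57 and 9.35 in OT-p, 6.52-fold higher. The antiproliferative genes Btg2 and Btg1 were 5.03-fold and 2.55-fold higher, and Rb1, the retinoblastoma protein, 1.76-fold. Cyclin D1 (Ccnd1), which serum induces, was 2.41-fold lower, at 10.73, 10.76, 10.74 and 10.84 in OT-d against 11.97, 12.03, 11.97 and 12.10 in OT-p. The CDK inhibitors did not move as a family: Cdkn2c (p18) was 3.65-fold lower, Cdkn1a (p21) 2.02-fold lower, and Cdkn1b (p27) had 10.34, 10.37, 10.08 and 10.16 in OT-d against 10.04, 10.06, 9.71 and 9.70 in OT-p. The OT-d samples of Cdkn1b were barely above the OT-p samples (log2 0.28, adjusted p = 0.0273), its 2 probes pointed opposite ways, and the call was lost without any one of OT-d replicate 2 or 4 or OT-p replicate 2 or 4 (adjusted p of 0.0551 to 0.191).

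Among called genes above background in all 8 OT samples and without overlap of the media, the 12 that rose furthest came from several classes. Ccdc184, a coiled-coil gene, was first of these, with levels of 12.21, 11.99, 12.05 and 11.77 in OT-d, against 6.70, 7.26, 6.83 and 6.89 in OT-p, 30.2-fold higher. Fam183b followed at 24.1-fold and St3gal1, a sialyltransferase of O-glycans, at 21.6-fold. St3gal1 varied most among OT-d samples, from 11.08 to 12.07, and stayed clear of the OT-p samples. Ndrg1, named as a gene downregulated by N-myc and induced by hypoxia, had levels of 12.61, 13.08, 13.60 and 13.12 in OT-d, against 8.76, 8.84, 8.88 and 8.85 in OT-p, 20.1-fold higher. Txnip, the arrestin that binds thioredoxin and limits glucose uptake, was 18.9-fold higher on the probe used and higher by log2 2.0 on its other probe. Ache, which encodes acetylcholinesterase, had levels of 11.48, 11.54, 11.80 and 11.63 in OT-d, against 7.61, 7.78, 7.09 and 7.02 in OT-p, 18.3-fold higher. Ufsp1, a protease of the ubiquitin-like modifier Ufm1 and the neighbour of Ache on chromosome 5, was 14.2-fold higher. Cyp2s1, a cytochrome P450, was 16.2-fold higher, the mitochondrial protein gene Mgarp 16.1-fold, the kinesin gene Kifc2 15.8-fold, Tmem130 15-fold and Plekhg1 14.1-fold. Cst12 (at least 3.75-fold), the cyclic nucleotide-gated channel gene Cnga3 (at least 2.55-fold) and the interferon-induced Ifit1 (at least 2.53-fold) were above background in all 4 OT-d samples and in no OT-p sample.

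**Figure D2:**
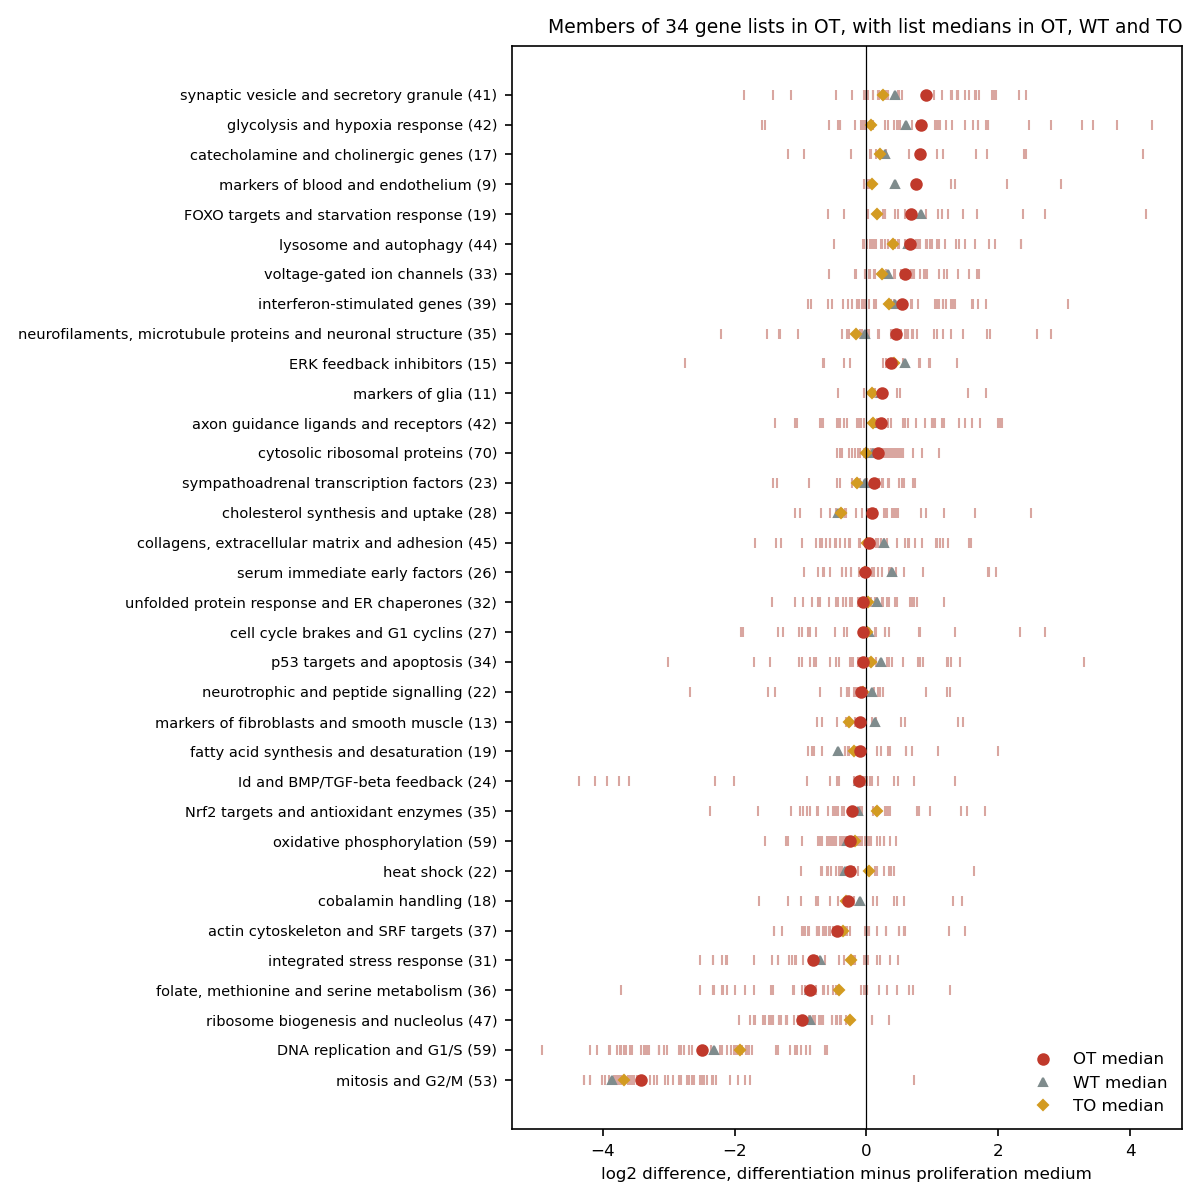
Log2 difference between differentiation and proliferation medium (horizontal axis) for the 34 gene lists, with the number of members tested in brackets; ticks are list members in OT, and the red point, grey triangle and yellow diamond are the list medians in OT, WT and TO. Synaptic vesicle and secretory granule genes sit at the top with an OT median of 0.908, and DNA replication (-2.5) and mitosis (-3.42) stand apart at the bottom.

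Neurosecretory genes were higher as a group. In the synaptic vesicle and secretory granule list, 30 of 41 members tested were higher and 5 lower in OT-d (median 0.908, but 0.486 without the filter on dim probes and 0.484 with every probe counted singly). Scg5, a chaperone of prohormone convertase 2, was 4.99-fold higher, and Cpe, the carboxypeptidase that trims prohormones, 3.88-fold higher. Scg2 (secretogranin II) had levels of 13.86, 14.12, 14.18 and 14.31 in OT-d, against 12.11, 12.30, 12.29 and 12.14 in OT-p, 3.92-fold higher. Chgb (chromogranin B) had 18.59, 18.77, 17.58 and 18.68 in OT-d, against 16.90, 16.78, 17.23 and 17.06 in OT-p. OT-d replicate 3 of Chgb lay about 1 log2 unit below its group while still above all OT-p samples. The fitted log2 difference was 1.93 ± 0.33, it was 0.76 within slide 2, which does not hold that replicate, and the 2 Chgb probes gave 0.4 and 1.9. Against this direction, complexins 1 and 2, which clamp and promote vesicle fusion, were 3.63-fold (Cplx1) and 2.69-fold (Cplx2) lower. The vesicle priming gene Unc13a was 2.22-fold lower on the probe used and higher by log2 1.4 on the other.

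Catecholamine and cholinergic genes above background were mostly higher, with 11 of 17 members tested higher and 3 lower in OT-d. The median was 0.809 over these 17, and 0.0876 without the filter on dim probes, which adds members near background. Th, the rate-limiting enzyme of catecholamine synthesis, had levels of 12.74, 12.84, 12.96 and 12.97 in OT-d, against 11.70, 11.87, 11.83 and 11.77 in OT-p. All OT-d samples exceeded all OT-p samples, by 2.11-fold (adjusted p = 2.54e-11). The vesicular monoamine transporters Slc18a1 and Slc18a2 were 5.33-fold and 3.16-fold higher. Cyb561, the granule cytochrome that supplies electrons for noradrenaline synthesis, had 13.06, 13.12, 13.28 and 13.32 in OT-d, against 10.71, 11.01, 10.89 and 10.87 in OT-p, 5.22-fold higher. The nicotinic receptor subunit Chrna5 was 3.55-fold higher, whereas the alpha7 subunit Chrna7 was 2.28-fold lower. Maoa, which breaks down monoamines, was 1.93-fold lower.

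**Figure D3:**
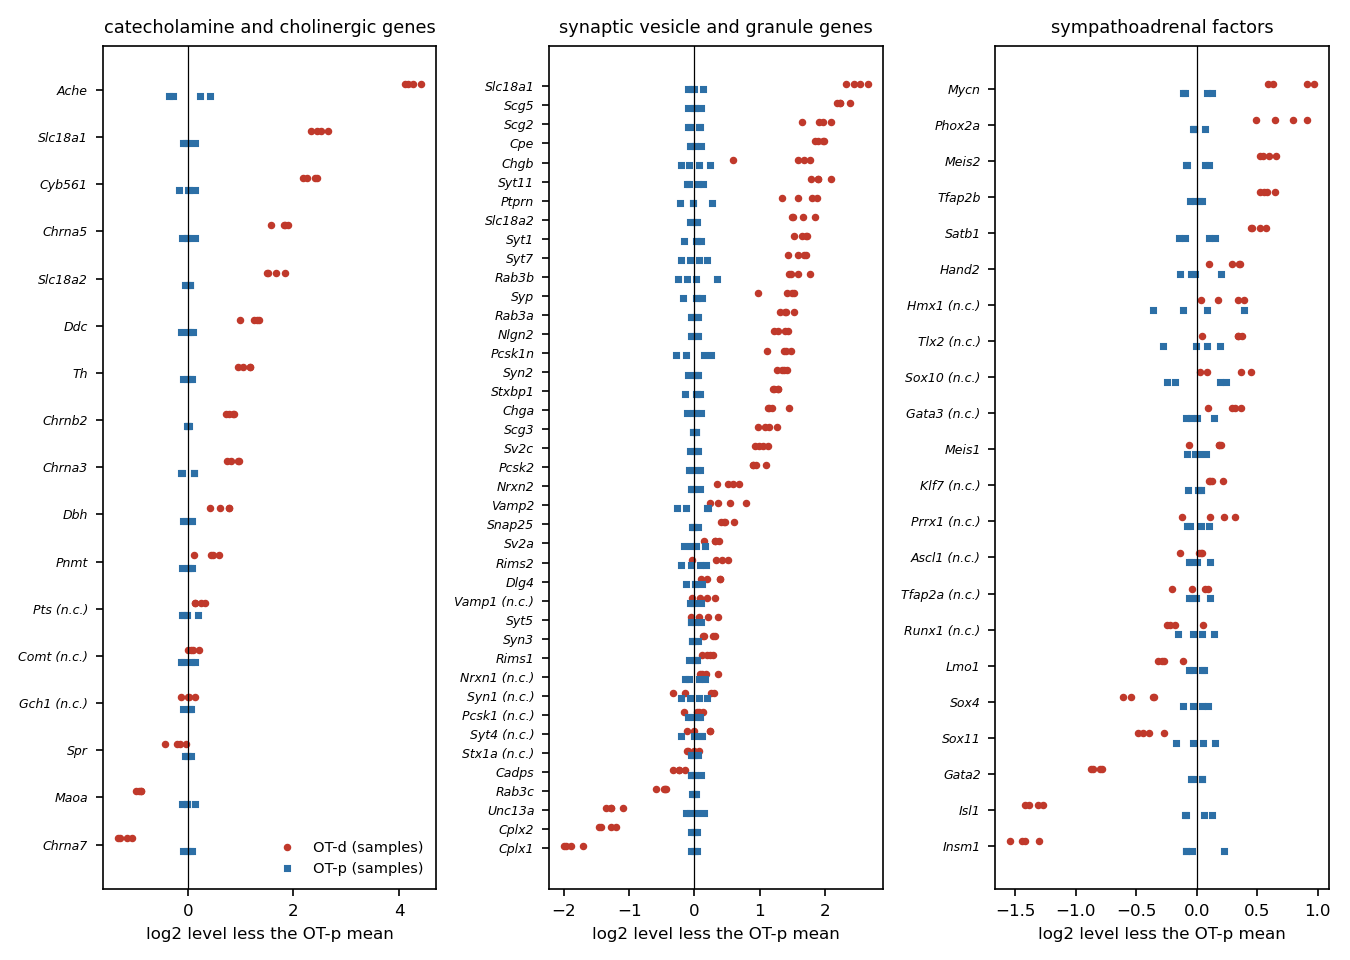
Level of tested members of 3 lists, 1 of them not shown, in each OT sample, as log2 intensity less the OT-p mean of the gene (horizontal axis); red points are OT-d samples, blue squares OT-p samples, and n.c. marks genes not called. Ache has OT-d samples about 4 log2 units above its OT-p samples, most vesicle and granule genes lie to the right of 0, and the sympathoadrenal factors lie on both sides.

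The factors that specify sympathoadrenal cells did not share one direction: 7 of 23 were higher, 6 lower and 10 not called in OT-d (median 0.122). Over all genes 36.4% were higher and 31.1% lower, so these counts do not set the list apart. Phox2a, a homeodomain factor that activates Dbh and Th, had levels of 12.58, 12.74, 13.01 and 12.89 in OT-d, against 12.07, 12.07, 12.07 and 12.17 in OT-p, 1.64-fold higher. Mycn, the oncogene of neuroblastoma, had levels of 12.70, 12.76, 12.42 and 12.38 in OT-d, against 11.88, 11.91, 11.68 and 11.69 in OT-p, 1.66-fold higher. Insm1, Isl1 and Gata2, factors of sympathoadrenal development, were 2.68-fold, 2.57-fold and 1.83-fold lower. Each of these 5 genes separated the media without overlap.

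Genes of neuronal structure were 21 higher and 8 lower of 35 (median 0.454). Mapt, which encodes tau, had levels of 14.02, 13.84, 14.04 and 13.95 in OT-d, against 11.50, 11.43, 11.25 and 11.31 in OT-p, 6.03-fold higher. Eno2, the neuronal enolase, was 6.96-fold higher. Stmn2, a regulator of microtubules in growth cones, had 11.28, 11.39, 11.20 and 11.53 in OT-d, against 9.45, 9.66, 9.53 and 9.52 in OT-p, 3.69-fold higher, its relative Stmn4 was 3.55-fold higher and Tubb2b, a neuronal beta-tubulin, 2.77-fold higher. Nefh, the heavy neurofilament, went the other way at 11.50, 11.46, 11.40 and 11.37 in OT-d, against 13.70, 13.66, 13.71 and 13.56 in OT-p, 4.63-fold lower. The progenitor intermediate filaments Nes (nestin) and Vim (vimentin) were 2.84-fold and 2.47-fold lower, and Stmn1, which dividing cells express, 2.05-fold lower.

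Among voltage-gated channels, 21 of 33 tested were higher and 2 lower in OT-d. The median of 0.591 was 0.181 without the filter and 0.189 with every probe counted singly. Kcnc4 and Kcnc1, fast potassium channels of the Kv3 family, were 3.19-fold and 2.93-fold higher, the calcium channel subunit Cacnb3 2.34-fold higher, and Kcnh2 (hERG) 1.48-fold lower. Axon guidance genes were 21 higher and 13 lower of 42 (median 0.216, and 0.0504 without the filter). The semaphorin receptor Plxnc1 was 4.14-fold higher, with 2 probes at 0.8 and 2.0, Sema4f 3.99-fold and the netrin receptor Unc5a 3.3-fold higher. Nrp2, a receptor of class 3 semaphorins, had levels of 13.35, 13.06, 13.45 and 13.18 in OT-d, against 14.45, 14.59, 14.67 and 14.73 in OT-p, 2.62-fold lower, and Unc5b, another netrin receptor, was 2.12-fold lower.

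Neurotrophic genes were 6 higher and 9 lower of 22 (median -0.0857). Ptn (pleiotrophin), a secreted growth factor, had levels of 11.14, 11.32, 10.92 and 10.91 in OT-d, against 13.95, 13.78, 13.68 and 13.62 in OT-p, 6.39-fold lower and without overlap, while its proposed receptor Alk was 2.41-fold higher. The neurotrophin receptor genes Ntrk3 (TrkC) and Ngfr (p75) were 2.62-fold and 1.31-fold lower.

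Id genes, targets of BMP signalling that block basic helix-loop-helix factors, were among the most reduced genes that stayed above background in all 8 samples. Id2 had levels of 9.19, 9.49, 9.47 and 9.53 in OT-d, against 13.99, 13.83, 13.81 and 13.70 in OT-p, 20.5-fold lower (adjusted p = 2.04e-15). Id1 had 9.28, 9.51, 9.77 and 9.58 in OT-d, against 13.53, 13.58, 13.28 and 13.46 in OT-p, 15.4-fold lower. Id3 had 8.15, 8.94, 7.76 and 9.10 in OT-d, against 12.48, 12.33, 12.54 and 12.52 in OT-p, 13.5-fold lower, with more spread among the OT-d samples than in Id1 or Id2. Bambi, a decoy receptor that BMP induces, was 17.4-fold lower (8.91, 9.03, 9.17 and 9.27 in OT-d against 13.29, 13.20, 13.19 and 13.24 in OT-p), and Fst (follistatin), an activin antagonist, 12.2-fold lower. In the whole list of Id and BMP/TGF-beta feedback genes, 4 of 24 were higher and 12 lower (median -0.112), so the large decreases were those of a few genes. Tgfb3 was 2.54-fold higher, and Ski, a repressor of TGF-beta signalling, 1.66-fold higher on 1 of its 3 probes, the lowest of which was near 0.

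Serum immediate early factors were 7 higher and 10 lower of 26 (median -0.0169, which was 0.0489 in the series table and 0.0265 within slide 2). Jund and Jun, members of the AP-1 family, had levels of 16.14, 16.14, 16.27 and 16.30 (Jund) and 12.24, 12.19, 12.09 and 12.19 (Jun) in OT-d, against 14.16, 14.03, 14.30 and 14.32 and 10.40, 10.28, 10.07 and 10.17 in OT-p. They were 3.9-fold and 3.58-fold higher and Maff 3.64-fold higher, whereas Fos was 1.47-fold, Myc 1.57-fold and Klf4 1.93-fold lower. Of 15 ERK feedback inhibitors, 9 were higher and 5 lower (median 0.369, and 0.181 with every probe counted singly). Dusp2, a nuclear ERK phosphatase, had 12.14, 12.04, 11.49 and 12.04 in OT-d, against 14.86, 14.74, 14.70 and 14.66 in OT-p, 6.74-fold lower, and Dusp10, which acts on p38 and JNK, was 2.58-fold higher. Actin and SRF target genes were 9 higher and 22 lower of 37 (median -0.441). Tpm3 (tropomyosin 3) and Pdlim3 were 2.64-fold and 2.65-fold lower, while Tmsb4x, which binds actin monomers, was 2.81-fold and Actn1 (alpha-actinin 1) 2.37-fold higher.

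Glycolysis and hypoxia response genes were higher as a group, 29 of 42 with 5 lower (median 0.822, and 0.47 with every probe counted singly). Beside Ndrg1, the mitophagy receptor Bnip3 had levels of 14.03, 14.27, 14.30 and 14.29 in OT-d, against 10.76, 11.10, 10.91 and 10.88 in OT-p, 10.9-fold higher. Pdk1, which turns pyruvate away from the mitochondrion, was 9.67-fold higher, with 2 probes at 1.8 and 3.3. Aldoc (aldolase C) was 14-fold higher, with probes at 0.7 and 3.8. Hif1a, which encodes the hypoxia-induced factor itself, was 2.91-fold lower, at 9.68, 9.65, 9.72 and 9.64 in OT-d against 11.06, 11.19, 11.15 and 11.21 in OT-p, and Pdk3, another of its targets, was 3.01-fold lower. Oxidative phosphorylation genes were 6 higher and 39 lower of 59, by small amounts (median -0.251). Cytochrome c (Cycs) was 2.9-fold lower, Ndufs8 of complex I 2.34-fold and Cox5a of complex IV 2.29-fold lower.

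Sterol genes did not fall together in OT: 11 of 28 were higher and 9 lower, near the shares over all genes (36.4% and 31.1%). Their median was 0.0861, which turned to -0.0135 with every probe counted singly. Tm7sf2, a sterol C14 reductase, had levels of 11.29, 11.40, 11.48 and 11.29 in OT-d, against 8.92, 8.90, 8.86 and 8.97 in OT-p, 5.62-fold higher. Msmo1, the C4 methyl sterol oxidase, had 14.39, 14.35, 14.36 and 14.56 in OT-d, against 13.35, 13.30, 13.17 and 13.28 in OT-p, 2.27-fold higher. Hmgcs1, HMG-CoA synthase, was 1.86-fold higher and Insig2, which retains SREBP in the endoplasmic reticulum, 3.15-fold higher. The master regulator Srebf2 was 1.77-fold higher on the probe used, but its 4 probes ranged from -1.4 to 0.8. The reductase Hsd17b7 was 2.12-fold and mevalonate kinase (Mvk) 2.02-fold lower. CCAAT occurred in 18 of 20 sterol promoters (90%), against 43% of all, and a sterol element of the form TCACCCCAC in 1 of 20 (5%), against 0.702%. The promoter of Msmo1 is shown for its CCAAT boxes, in capitals, in the 120 bases before the start.
Msmo1, chr8:64733579-64733698, minus strand: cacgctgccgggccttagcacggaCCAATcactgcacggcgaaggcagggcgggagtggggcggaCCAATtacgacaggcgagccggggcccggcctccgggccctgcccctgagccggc
Fatty acid genes were 7 higher and 9 lower of 19 (median -0.105, and 0.164 with every probe counted singly). Thrsp, a lipogenic regulator, was 4-fold higher and Acss2, acetyl-CoA synthetase, 2.13-fold higher. Fasn, fatty acid synthase, was 1.85-fold lower and the desaturase Fads2 1.75-fold lower.

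Lysosome and autophagy genes were 32 higher and 1 lower of 44 (median 0.668, and 0.441 within slide 2). FOXO targets and starvation genes were 16 higher and 2 lower of 19 (median 0.678, and 0.324 with every probe counted singly). Gabarapl1, a ubiquitin-like protein of the autophagosome, had levels of 16.82, 16.90, 16.70 and 17.18 in OT-d, against 14.77, 14.63, 14.62 and 14.65 in OT-p, 5.1-fold higher. The samples of the media did not overlap. Its relative Map1lc3b was 3.87-fold higher and the sialidase Neu1 3.65-fold higher. The one lower gene was Atg5, which acts in autophagosome formation, 1.41-fold. Of the FOXO list, Pik3ip1, an inhibitor of PI3 kinase, was 5.16-fold higher. The insulin receptor Insr (probes at 0.1 and 1.5) and Sesn3, an mTORC1 inhibitor (probes from -0.4 to 1.7), were higher on the probes used, by 2.76-fold and 3.19-fold.

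Genes of the integrated stress response were 2 higher and 20 lower of 31 (median -0.804). Those that fell furthest make amino acids and one-carbon units: Cth, which makes cysteine, 5.74-fold, the serine synthesis enzymes Psph 5.04-fold and Psat1 5.02-fold, and the mitochondrial folate enzyme Mthfd2 4.58-fold. Psat1 had levels of 11.69, 11.64, 11.62 and 11.49 in OT-d, against 13.72, 13.83, 13.91 and 13.96 in OT-p. Nupr1, a stress-induced chromatin protein, was 4.39-fold lower. The folate, methionine and serine list, which shares several of these genes, had 6 higher and 25 lower of 36 (median -0.852). Thymidylate synthase (Tyms), also a replication gene, was 13.2-fold lower and Shmt1, the cytosolic serine hydroxymethyltransferase, 4.99-fold lower. Nnmt, which methylates nicotinamide, was 2.41-fold higher.

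Cobalamin genes, the pathway of the carrier that the construct carries, were 5 higher and 10 lower of 18 (median -0.279). Tcn2 had levels of 9.00, 9.10, 9.07 and 9.09 in OT-d, against 7.56, 7.59, 7.67 and 7.51 in OT-p, 2.74-fold higher and without overlap. Whether its probe also reads the transcript of the construct is not known from the labels. In untransfected cells, which lack the construct, Tcn2 changed by 0.97, against 1.45 in OT, a difference of 0.48 (limma adjusted p = 0.00733). Its mean level was 7.91 in WT-p and 8.90 in WT-d, against 7.58 in OT-p and 9.07 in OT-d. In TO, which carries the other fusion, Tcn2 had means of 8.97 in TO-p and 9.56 in TO-d. It changed there by 0.47, and the OT response was above this by 0.99 (limma adjusted p = 1.09e-05). A share of the construct in the OT values was not tested. The methionine synthase Mtr, an enzyme that needs cobalamin, had 7.33, 7.57, 7.72 and 7.74 in OT-d, against 9.27, 9.25, 9.22 and 9.30 in OT-p, 3.1-fold lower, and its other probe gave -0.7. Mmachc, a chaperone that trims incoming cobalamin, was 2.28-fold lower, and Lmbrd1, which passes it out of the lysosome, 2.5-fold higher. The transcobalamin receptor Cd320 did not pass the test, with a mean log2 intensity of 10.63 ± 0.21 in OT-d and 10.59 ± 0.109 in OT-p (SD, n = 4 each, log2 difference 0.10, 95% interval -0.11 to 0.30).

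Ribosome biogenesis genes were 1 higher and 43 lower of 47 (median -0.982). Nhp2 and Dkc1, core proteins of the box H/ACA particles that modify ribosomal RNA, were 3.82-fold and 3.28-fold lower and Noc3l 3.41-fold lower. Nhp2 had levels of 12.92, 13.02, 12.68 and 13.04 in OT-d, against 14.96, 14.81, 14.72 and 14.88 in OT-p. The exception, Imp3, was 1.26-fold higher, and its call was lost when the samples labelled b were left out (adjusted p = 0.251). Cytosolic ribosomal protein genes were 34 higher and 6 lower of 70, by small amounts (median 0.181, and 0.0121 in the series table and -0.0354 under quantile normalization). Rpl10a was highest among them, 2.14-fold.

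Redox and chaperone genes were mixed. Nrf2 targets and antioxidant enzymes were 11 higher and 19 lower of 35 (median -0.219, and -0.0711 with every probe counted singly). Hmox1, heme oxygenase 1, had levels of 9.85, 10.09, 9.65 and 9.98 in OT-d, against 12.27, 12.25, 12.38 and 12.31 in OT-p, 5.2-fold lower, Gpx1 was 3.14-fold and Nqo1 2.02-fold lower. Gstm1, a glutathione transferase, was 2.89-fold higher, and Srxn1 (sulfiredoxin) 3.48-fold higher from 3 samples a medium, since 1 spot in each carried an outlier mark. Heat shock genes were 5 higher and 11 lower of 22 (median -0.253), with Dnajb4 3.11-fold higher and the mitochondrial Hspa9 1.98-fold lower. Genes of the unfolded protein response were 12 higher and 13 lower of 32 (median -0.0478, and 0.023 from the series table), beside 36.4% and 31.1% over all genes. The ubiquitin ligase Syvn1 was 2.25-fold higher and the chaperone Dnajc3 2.7-fold lower.

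Interferon-stimulated genes were 21 higher and 6 lower of 39 (median 0.54, and 1.02 with the processed signals). Mx2, an antiviral GTPase, had levels of 10.15, 9.98, 10.17 and 9.92 in OT-d, against 6.85, 6.90, 7.19 and 7.12 in OT-p, 8.31-fold higher, Ifi27 was 3.5-fold higher and the class I gene H2-D1, which shares sequence with other class I genes, 3.23-fold higher. p53 targets and apoptosis genes were 12 higher and 14 lower of 34 (median -0.0587). Trp53inp1 was 9.86-fold higher, with probes at 1.4 and 3.3, and Bbc3 (PUMA) 2.67-fold higher, while Gtse1, which is expressed in G2, was 8.11-fold lower. Extracellular matrix and adhesion genes were 16 higher and 16 lower of 45 (median 0.0417, and -0.032 within slide 2). Such counts are near the shares over all genes (36.4% higher and 31.1% lower). Timp2, an inhibitor of metalloproteinases, and the laminin chain Lama4 were 3-fold and 2.93-fold higher, and Tgfbi and Fbln1 (fibulin 1) 3.23-fold and 2.6-fold lower.

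Markers of other cell types were read out in the same samples, and their part in the results above was not tested. Markers of blood and endothelium were 5 higher and 0 lower of 9 (median 0.752, but 0.00165 without the filter and 1.87 with the processed signals), and their summed level was 6991 to 8400 in OT-d samples, against 2614 to 2903 in OT-p samples. Sums are on the linear scale, so bright genes weigh most, here Vwf with mean log2 levels of 12.19 in OT-d and 10.02 in OT-p. The leukocyte and endothelial markers Ptprc, Itgam, Tyrobp, Cdh5 and Emcn were not above background in any of the 8 samples. The higher genes were Lyz2 (9.48, 9.44, 9.37 and 9.15 in OT-d, against 6.14, 6.36, 6.28 and 6.12 in OT-p, where 2 of 4 samples were above background), Vwf (4.39-fold), Hba-a1 (2.55-fold), Esam (2.44-fold) and Aif1. Markers of glia were 4 higher and 1 lower of 11 (median 0.231, and 0.0871 without the filter), with summed levels of 42640 to 53100 in OT-d against 32180 to 35480 in OT-p. Mbp was 3.51-fold higher (probes at 0.2 and 1.8) and Erbb3 2.92-fold, while Mog, Olig1, Slc1a3 and Cdh19 were not above background in any sample. Markers of fibroblasts and smooth muscle were 4 higher and 6 lower of 13 (median -0.0975, and 0.0351 with every probe counted singly), with sums of 14060 to 14860 in OT-d against 17600 to 17840 in OT-p. Pdgfrb was 2.77-fold higher and Acta2 1.68-fold lower, with its other probe near 0, and Fap, Postn and Dpt were not above background in any sample.

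The OT response was then compared with the response of the untransfected line to the same change of medium. The WT-p samples fell into pairs: residuals of replicates 1 and 3, which share a label number, correlated at 0.192 and those of replicates 2 and 4 at 0.393, against -0.65 to -0.467 across these pairs. Without replicates 1 and 3 the test called 5906 genes different from WT, and without replicates 2 and 4 it called 5305, beside 5685 with all 4. The OT and WT responses correlated at 0.863 across 16252 genes, a description over genes that share arrays and normalization. Of 8618 genes called in both lines, 8175 moved the same way and 443 in opposite ways. The test of the difference called 3314 genes (20.4%) with an OT response above and 2371 (14.6%) with one below that of WT. With loess normalization alone, without the step between arrays, the split was 3948 above and 987 below. Against TO, whose fusion binds cobalamin, the responses correlated at 0.786, and the test called 3709 genes (22.8%) above and 2817 (17.3%) below, or 2581 and 3092 with loess alone. Across genes the SD of the log2 responses was 0.839 in OT, 0.62 in TO and 0.803 in WT.

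**Figure D4:**
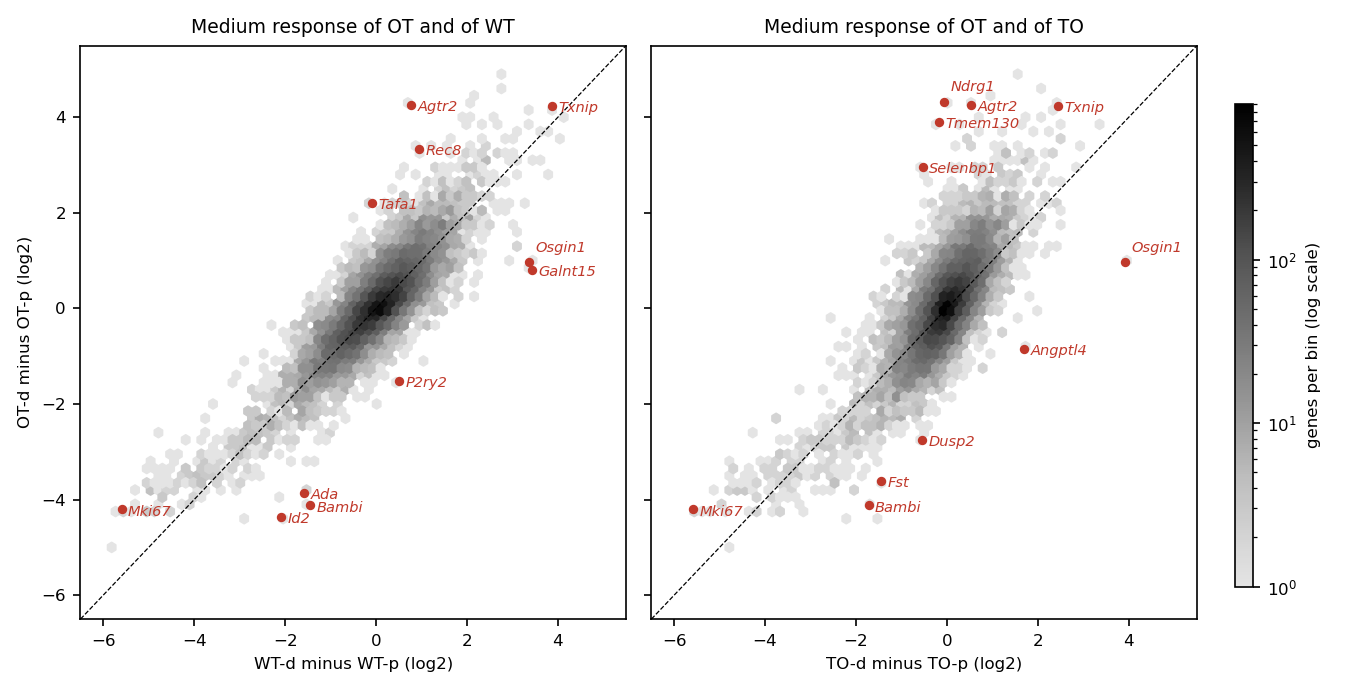
Log2 response to differentiation medium of each of 16252 genes in OT (vertical axis) against that in WT (left, horizontal axis) and in TO (right), with shading for the number of genes per bin and the dashed line at equal responses. Agtr2 lies far above the line in both panels at 4.25 in OT, and Osgin1 far below it at 0.97 in OT, against 3.92 in TO and 3.38 in WT.

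The OT response was above that of WT in 26 of 53 mitotic genes and below it in 3. Over all genes it was above in 20.4% and below in 14.6%. Mki67 changed by -4.20 in OT, against -5.59 in WT, a difference of 1.39 ± 0.23 (SE, limma adjusted p = 6.5e-05), and Ccnb1 by -4.20 against -5.56. Replication genes had 8 of 59 responses above and 12 below WT, a balance that turned with the WT-p samples used (4 and 16 without WT-p replicates 1 and 3, 13 and 7 without replicates 2 and 4). Against TO, 24 mitotic genes were above and 4 below, while 33 replication genes were below and 2 above. The shares over all genes were 22.8% above TO and 17.3% below.

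Id1, Id2, Id3 and Bambi fell further in OT than in either other line. The response of Id2 was -4.36 in OT, against -2.21 in TO and -2.09 in WT, and the difference was -2.15 ± 0.28 from TO (adjusted p = 2.69e-06) and -2.28 ± 0.26 from WT (adjusted p = 7.48e-07). Bambi changed by -4.12 in OT, -1.72 in TO and -1.44 in WT, and Id3 by -3.76, -1.98 and -1.48 in the same order. For Id2 the level in OT-d (9.42 ± 0.155, SD, n = 4) lay between those in TO-d (9.11 ± 0.0439) and WT-d (10.16 ± 0.411), whereas OT-p (13.83 ± 0.121) was above TO-p (11.32 ± 0.361) and WT-p (12.10 ± 0.51). These levels were not tested between lines here. Bambi had the same order in proliferation medium, with OT-p at 13.23 ± 0.0458, against 10.43 ± 0.31 in TO-p and 11.33 ± 0.582 in WT-p. In the Id and BMP/TGF-beta feedback list 10 of 24 genes had a response below that of WT and 0 above. Over all genes 14.6% were below and 20.4% above. Id1 changed by -3.94 in OT, -3.45 in TO and -2.16 in WT, so that its difference from TO was small (-0.49, adjusted p = 0.00895). Fst changed by -3.61 in OT, -1.45 in TO and -3.12 in WT, and its difference from WT was not called (adjusted p = 0.3).

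Several neuronal genes rose in OT and less, or not, in the other lines. In the neuronal structure list 22 of 35 genes had an OT response above that of WT and 2 below (20.4% and 14.6% over all genes). Stmn2 changed by 1.88 in OT, against 0.35 in TO and 0.45 in WT, a difference from WT of 1.43 ± 0.12 (adjusted p = 7.77e-09). Its OT-p level (9.54 ± 0.0887) was the lowest of the 6 groups, where TO-p had 10.61 ± 0.168 and WT-p 10.40 ± 0.2. Cyb561 had the same form, with a response of 2.38 in OT, 0.20 in TO and 0.61 in WT, and OT-p at 10.87 ± 0.126 against 12.39 ± 0.186 in TO-p and 12.10 ± 0.298 in WT-p. Phox2a and Mycn rose in OT and fell in the other lines, Phox2a by 0.71 in OT against -0.51 in TO and -0.63 in WT, and Mycn by 0.73 against -0.65 and -0.52. The netrin and semaphorin receptors Unc5b and Nrp2 fell in OT, by 1.09 and 1.39, and changed by 0.21 and 0.11 in WT.

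**Figure D5:**
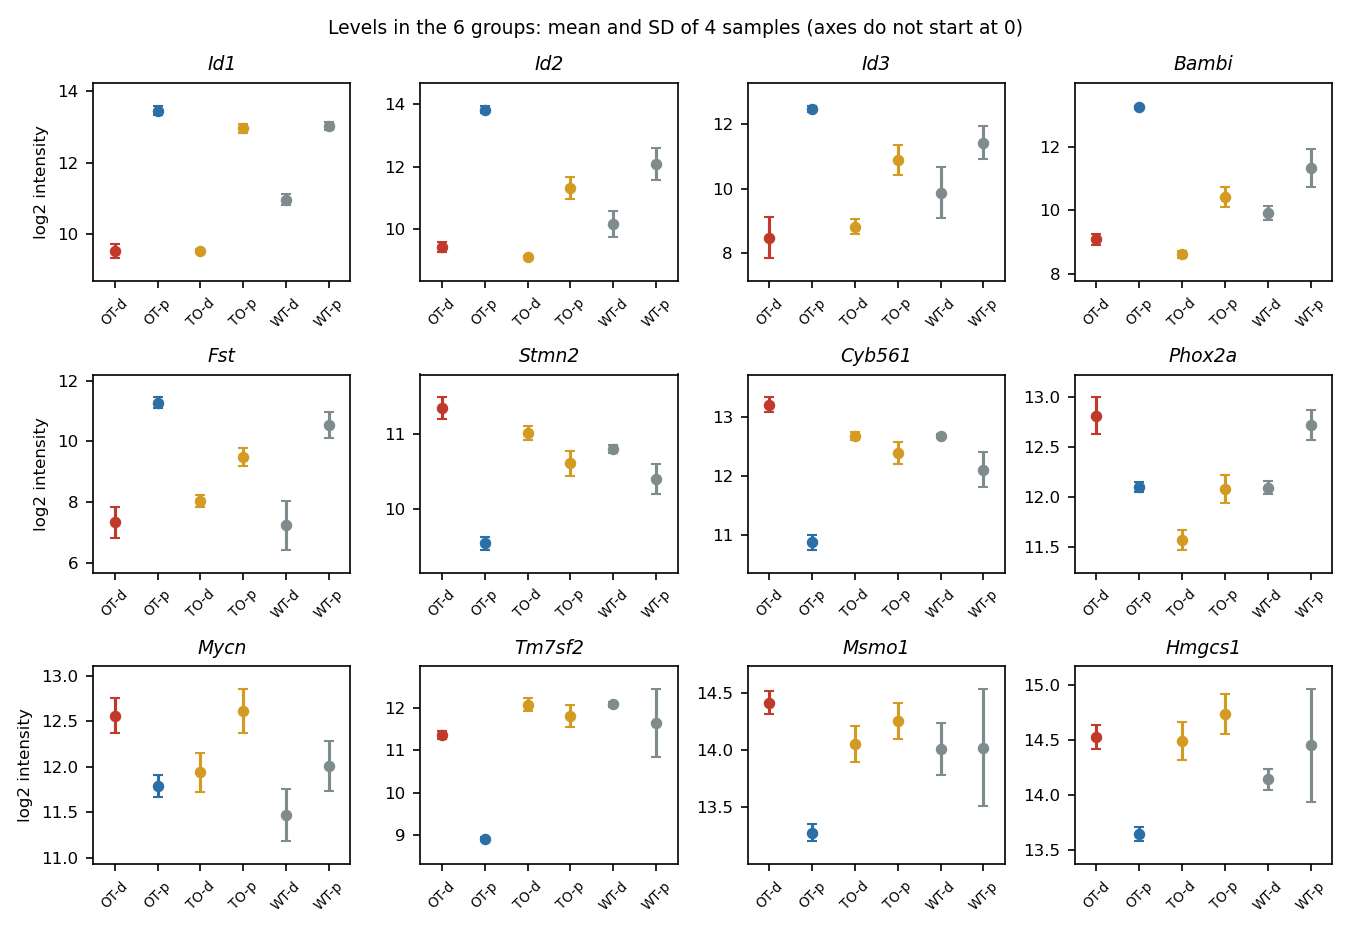
Normalized log2 intensity (vertical axis, not starting at 0) of 12 genes in the 6 groups, as mean and SD of 4 samples. For Id2, Bambi, Stmn2, Cyb561 and Tm7sf2 the OT-p group stands apart from TO-p and WT-p, as for Tm7sf2 at 8.91 ± 0.0463 in OT-p against 11.81 ± 0.256 in TO-p and 11.65 ± 0.798 in WT-p.

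Sterol genes differed between the lines. In WT 2 were higher and 18 lower in differentiation medium, where 5823 of all 16252 genes were higher and 5001 lower. Of 28, 18 had an OT response above that of WT and 1 below, against 20.4% and 14.6% over all genes. Tm7sf2 changed by 2.49 in OT, 0.14 in TO and 0.42 in WT. Msmo1 changed by 1.18, -0.25 and -0.00 in the same order, and Hmgcs1 by 0.90, -0.23 and -0.30. The differences from WT were 2.71, 1.60 and 1.51 without WT-p replicates 1 and 3, and 1.40, 0.76 and 0.67 without replicates 2 and 4, and each was called. In each of these 3 genes the OT-p level was the lowest of the 6 group means. Immediate early factors went the other way. In WT 14 of 26 were higher and 2 lower, beside the WT counts over all genes given above. The OT response was below that of WT in 13 and above it in 2, against 14.6% and 20.4% over all genes.

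Genes with large differences from WT had unlike functions. Agtr2, the type 2 angiotensin receptor, had levels of 11.57, 11.44, 11.23 and 11.33 in OT-d, against 6.00, 7.77, 6.33 and 6.49 in OT-p, where only replicate 2 was above background. Its response was 4.25 in OT, 0.54 in TO and 0.78 in WT, and 5.18 in OT within slide 2, so that the size of its increase is uncertain, and 2 of 4 TO-p samples were above background. The liver-type glycogen phosphorylase Pygl changed by 3.36 in OT, against 0.94 in WT, the meiotic cohesin Rec8 by 3.34 against 0.95 and the secreted Tafa1 by 2.20 against -0.09. The WT responses of several of these genes depended on the WT-p samples used. Pygl had 12.17, 13.73, 12.27 and 13.47 in WT-p replicates 1 to 4, and its WT response was 0.24 without replicates 1 and 3 and 1.64 without replicates 2 and 4. The difference from OT was 3.11 and 1.69 in these fits, called in both. Tmsb4x changed by 1.49 in OT and -0.17 in WT. Osgin1, a target of Nrf2, changed by only 0.97 in OT, against 3.92 in TO and 3.38 in WT, and its 3 probes in OT ranged from near 0 to 1.0. The glycosyltransferase Galnt15 changed by 0.80 in OT and 3.43 in WT, adenosine deaminase (Ada) by -3.87 and -1.58, and the nucleotide receptor P2ry2 by -1.52 and 0.51.

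Genes with large differences from TO included some at the top of the OT response. Ndrg1 changed by 4.33 in OT, against -0.06 in TO, a difference of 4.39 ± 0.43 (adjusted p = 9.09e-08), and by 2.02 in WT, where it was 1.29 without WT-p replicates 1 and 3 and 2.75 without replicates 2 and 4. Tmem130 changed by 3.91 in OT, -0.18 in TO and 4.13 in WT, and the OT response was not called different from that of WT (adjusted p = 0.509). In TO, Tmem130 was above background in only 2 of 4 TO-d and 3 of 4 TO-p samples, so the size of its difference from TO is uncertain. St3gal1, Aldoc, Selenbp1 and Ccng2 changed by 4.43, 3.80, 2.95 and 2.70 in OT, against 0.88, 0.28, -0.54 and 0.11 in TO. St3gal1 and Aldoc had means of 7.31 and 9.23 in OT-p, below 10.86 and 12.38 in TO-p. Their OT-d means (11.63 and 12.91) lay near those of TO-d (11.87 and 12.88). Ndrg1 and Ccng2 were also lower in OT-p (8.83 and 9.52) than in TO-p (10.86 and 10.90). In OT-d they were higher (13.10 and 12.13) than in TO-d (10.92 and 11.07). These levels were not tested between lines. Glycolysis and hypoxia genes had 24 of 42 responses above those of TO and 5 below, against 22.8% and 17.3% over all genes. In the other direction Angptl4, an inhibitor of lipoprotein lipase, changed by -0.84 in OT and 1.70 in TO, the transferrin receptor Tfrc by -1.27 and 0.80, and Dusp2 by -2.75 and -0.54.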

How the data were processed

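RNA of 24 samples was hybridised in pairs to 12 Agilent 2-colour arrays. Per the file headers, the deposited scanner tables came from Feature Extraction 10.5.1.1 and hold raw intensity and local background for each spot and dye, with 0 or 1 marks for spot quality. The deposited series table holds 1 intensity per spot and sample and served as an alternative.

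Each sample was read in its own dye. Backgrounds marked non-uniform (0 to 158 spots a sample) were replaced by the sample's median background, a choice made after the files were seen, because backgrounds in OT-d replicate 2 reached 33095 against a median of 60.5. Background was corrected by normexp (offset 50), the 1639 control spots were removed, and loess within and Aquantile between arrays gave log2 intensity in R 4.3.3 with limma 3.58.1. Spots marked as outliers (0.294% of values) were left out. Of 41174 probes, the one with the highest mean stood for its gene (names by accession 24375, symbol 6301, synonym 2426, or the file's own 8072). A gene was tested if some group had it well above background in each of its 4 samples, which kept 16252 of 27597.

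All 24 samples were fitted as separate channels with limma (intraspot correlation 0.453, statmod 1.5.0), with 6 group means and a dye term, 17 residual degrees of freedom, two-sided tests and Benjamini-Hochberg adjustment over all genes. In OT-d against OT-p simulated for 15846 genes, 99% of changes of log2 1 and 100% of changes of log2 2 were called, and 4.33% of the calls were false. The simulation changed only a small part of the genes, in OT-d alone, and linked samples only within an array. It therefore does not give the false share among the real calls, where most genes moved and samples may share a source. The bound on a gene dim in 1 medium is the mean of the bright samples less the higher of the dim value and the lowest level well above background per array.

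The samples, members, 34 lists (1224 genes, 1074 tested) and the rule for named genes were chosen with earlier results of these data known. Named genes were the 12 largest changes each way, up to 3 bounds each way, up to 5 called members per list and direction, the 8 largest differences from each other line, and Tcn2, Cd320, Mtr, Th, Mki67, Ccnd1 and Cdkn1b, of which the text prints some. A few genes that the rule names are not reported here. Cdc20, Cdk1, Top2a and Mcm6 are outside it. Alternatives were the processed signals, the series table, quantile or loess alone, no filter, every probe singly, no dye term, slide as covariate, the replicate block, OT samples alone, the samples labelled b left out or averaged, each OT sample left out in turn and, added after seeing the data, each TO or WT sample and the WT-p samples by label number.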

Additional observations from a re-analysis of the deposited data

Results flagged for a closer look

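Among the genes named above, 22 of 378 groups of 4 samples (5.82%) held a sample set apart from its other 3, and chance gives about 1 in 20. OT-d replicate 3 was that sample in 7 of the 9 such groups of OT-d. Chromogranin B (Chgb) had 17.58 log2 intensity in OT-d replicate 3, against 18.59 to 18.77 in the other OT-d samples, Dusp2 had 11.49 and Map1lc3b 14.51. Ifi27 at 14.06 and Nqo1 at 6.90 were likewise lowest there, and Unc5a at 12.22 and Esam at 8.64 were highest. Bnip3 was lowest in OT-d replicate 1 at 14.03, and Hmgcs1 was highest in OT-d replicate 4 at 14.69.

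In OT-p, replicate 3 was highest for Mki67 at 13.48, Racgap1 at 11.77 and Insm1 at 11.37, and lowest for Nqo1 at 7.90. Replicate 2 was highest for Top2a at 12.52, Ufsp1 at 9.72 and Insig2 at 10.96, and lowest for Sesn3 at 10.24. Replicate 4 was highest for Phox2a at 12.17 and lowest for Ccng2 at 9.35. Replicate 1 was highest for Gabarapl1 at 14.77 and Rpl10a at 14.17, and lowest for Acta2 at 13.04. Most of these gaps were small on the log2 scale: the whole range of the 4 samples was 0.0539 for Sesn3 and 0.166 for Mki67.

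The response to medium differed between OT and WT for 5685 genes and between OT and TO for 6526 genes, by limma's test of the difference. Against WT the cell cycle genes Ccnb1 and Mki67 differed by 1.36 and 1.39, and the neuronal or secretory genes Stmn2, Cyb561, Mycn and Phox2a by 1.43, 1.77, 1.25 and 1.34. The receptors Nrp2 and Unc5b differed by -1.50 and -1.29. Id1, Id2, Id3 and Bambi, genes of the BMP response, differed by -1.79, -2.28, -2.28 and -2.67. Ndrg1 and Tmsb4x differed by 2.31 and 1.66, the sterol genes Tm7sf2, Msmo1 and Hmgcs1 by 2.07, 1.18 and 1.20, and Osgin1 by -2.40. Other differences above 0 were 3.47 for Agtr2, 2.41 for Pygl, 2.39 for Rec8 and 2.29 for Tafa1. Galnt15, Ada and P2ry2 lay at -2.63, -2.29 and -2.03.

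Against TO, the differences were 4.39 for Ndrg1, 3.55 for St3gal1, 3.52 for Aldoc, 3.49 for Selenbp1 and 2.59 for Ccng2. Fitted differences of 4.09 for Tmem130 and 3.71 for Agtr2 are of uncertain size, since Tmem130 was above background in 2 of 4 TO-d and 3 of 4 TO-p samples and Agtr2 in 1 of 4 OT-p and 2 of 4 TO-p samples. Below 0 were Osgin1 at -2.95, Angptl4 at -2.54, Bambi at -2.40, Dusp2 at -2.21, Fst at -2.16, Id2 at -2.15 and Tfrc at -2.07. Each difference is the OT response less the response of the other line, on the log2 scale.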

How the results depend on the processing

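The settings tried kept the direction of nearly every result named. The count of genes called in OT-d against OT-p was 10970, and 10062 to 11212 with 1 sample left out of the fit (higher 5360 to 6101, lower 4702 to 5111). With 1 sample of the lines compared left out, differences from WT numbered 4829 to 6211 and differences from TO 5539 to 6729. Leaving out samples of TO and WT, and the WT-p samples by label number, was chosen after seeing the data, and it kept the direction and call of every named difference. With every probe counted singly the lower calls numbered 8275 in OT, 3573 for OT below WT and 4612 for OT below TO. More items were tested there, among them the dimmer probes of a gene, and their part in these counts was not tested. With loess alone, OT below WT fell to 987 calls, and the cause was not tested. List medians beyond their spread between samples turned sign in 5 cases: the unfolded protein response in the series table (0.023), cytosolic ribosomal proteins under quantile normalization (-0.0354), and with every probe singly cholesterol (-0.0135), fatty acid (0.164) and fibroblast markers (0.0351). The median of serum immediate early factors lay near 0 and on either side of it, and that of extracellular matrix genes was -0.032 within slide 2. Without the filter on dim probes the medians of neurosecretory, catecholamine, channel and blood marker lists moved towards 0, as given beside them; more dim members enter. Cdkn1b lost its call with loess alone (adjusted p = 0.221), without the dye term (0.123), with samples of 1 number averaged (0.0511) and without OT-d replicate 2 or 4 or OT-p replicate 2 or 4. Imp3 lost it without the samples labelled b (0.251) and with samples of 1 number averaged (0.155). Within slide 2, 10821 of 10914 called genes kept their direction (99.1%), and within slide 3, 10970 of 10970 did. The genes were called from these same samples, and the dye effect of the main fit was removed first. Such agreement was therefore largely built in.

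Replicate numbers did not pair the samples: residuals of OT-d and OT-p samples with the same number correlated at -0.00224, -0.0798, -0.106 and 0.0939 across genes. A fit with the replicate block called 10977 genes in OT, 5752 for OT against WT and 6478 for OT against TO. It had no dye term, because dye and number coincide. Residuals of samples that share a label number correlated at 0.24 in OT-d, 0.168 in OT-p and 0.192 in WT-p. In the other groups the values were -0.13 in TO-d, -0.207 in TO-p and -0.748 in WT-d. The other pairs of these groups ranged from -0.53 to 0.474, from -0.395 to -0.0336 and from -0.617 to 0.227. Residuals about a group mean lean below 0, so 0 is not the level of unrelated samples. Without the samples labelled b, 10102 genes were called.

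Limits: 4 samples a group, 1 line per construct and bulk RNA. Serum and DMSO changed together and cannot be told apart. Slide 1 held 1 OT-p sample and no OT-d sample. Intensities near background compress fold changes, so the sizes of decreases of dim genes such as E2f8 are uncertain. Probes of 1 gene disagreed in several cases, as given beside the genes.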
